A study of Mus musculus with 24 samples.

Results

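Of the 24 hippocampal libraries of the study, 3 were set apart by its authors before any gene was compared, namely WTSH 4, WTSH 7 and KDSH 6, and these left-out libraries are described here against the 9 kept libraries of the same housing (WTSH 2, 5, 19 and 23, and KDSH 1, 3, 8, 18 and 24). Each of these 12 libraries came from 1 male mouse of 21 to 23 months on a C57BL/6J background that lived in standard cages (SH). WTSH mice carried the unchanged MSK1 gene (Rps6ka5) and KDSH mice (MSK1 KD) were homozygous for a knock-in that changes 1 residue of the N-terminal kinase domain and inactivates it. The 2 genotypes were bred as separate lines, and no mouse received a drug. The 12 enriched libraries of the study, WTEE and KDEE, were all kept. They came from male mice of the same genotypes, background and ages. Those mice lived in environmental enrichment (EE), in larger groups and cages with a running wheel and toys. The enriched libraries are used only where this is stated. Hippocampal RNA was enriched for poly(A) tails on oligo-dT beads, broken into fragments, primed at random and read from both ends. The libraries had been set apart for ribosomal RNA reads, most in WTSH 4 and 7 and to a smaller extent in KDSH 6, and for a low correlation of gene counts with the rest of the group, so levels of ribosomal RNA models are given as a description, and the calls below rest on the same libraries that the choice was made on.

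Oligo-dT beads retain RNAs that end in a run of A. Ribosomal RNA, the spliceosomal small nuclear RNAs (snRNAs), 7SK, the RNA parts of RNase P and RNase MRP, Y RNAs and small nucleolar RNAs (snoRNAs) have no such tail, and the messengers of replication-dependent histones end in a conserved stem-loop in its place. Most vertebrate snoRNAs and the related small Cajal body RNAs (scaRNAs) are cut out of introns, and introns themselves are found in unspliced nuclear RNA. The level of each of these classes against coding messengers therefore describes what a poly(A) library holds besides messengers.

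The sequences below are those of the RNAs on which the results turn, from the GENCODE M21 transcripts of GRCm38 and, for the microRNA, from RefSeq (GRCm38.p6). The first set holds the stem-loop of 4 histone H4 messengers that rose in the left-out libraries, with the 16-base motif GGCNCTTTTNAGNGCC in capitals inside 30 bases, and the poly(A) signal, in capitals, of 2 histone messengers that were not called.
Hist1h4d: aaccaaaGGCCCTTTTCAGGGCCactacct
Hist1h4f: tctcaaaGGCCCTTTTCAGGGCCacccact
Hist1h4n: aactaaaGGCCCTTTTCAGGGCCatccaat
Hist1h4h: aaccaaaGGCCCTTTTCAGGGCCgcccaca
Hist1h1c: tgcttctAATAAAaagcgtttagttttcat
Hist3h2ba: tggtattAATAAAtttggttcaattttggc
The 4 H4 genes and Hist1h1c lie in the histone cluster of chromosome 13 (Hist1h4d at chr13:23581598-23582735 on the plus strand and Hist1h4f at chr13:23551258-23551648 on the minus strand, for example), and Hist3h2ba is at chr11:58948920-58949533 on the plus strand. The division between the sequences is not a clean one. The stem-loop begins at base 353 of the 1138-base annotated transcript of Hist1h4d and so lies far from its annotated end, Hist1h4h also has a poly(A) signal near its end, and Hist1h1c and Hist3h2ba also hold the stem-loop motif.

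The second set holds small RNAs without a tail. Rny1 and Rny3 are Y RNAs with their final run of T in capitals. Gm22513 is a model whose sequence is that of U1 snRNA, with its first 10 bases, the end that pairs with 5′ splice sites, in capitals. Gm24407 and Gm24265 have the sequence of U4 snRNA and differ at 2 of 141 bases, shown in capitals. Snord17 is a box C/D snoRNA with its boxes in capitals.
Rny1: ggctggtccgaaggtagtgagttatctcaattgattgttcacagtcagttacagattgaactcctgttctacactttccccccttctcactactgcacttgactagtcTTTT
Rny3: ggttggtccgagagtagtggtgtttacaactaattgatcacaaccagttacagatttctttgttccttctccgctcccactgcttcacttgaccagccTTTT
Gm22513: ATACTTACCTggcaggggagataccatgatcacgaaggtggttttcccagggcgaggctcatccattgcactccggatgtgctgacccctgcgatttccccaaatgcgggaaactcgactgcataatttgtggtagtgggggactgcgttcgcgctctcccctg
Gm24407: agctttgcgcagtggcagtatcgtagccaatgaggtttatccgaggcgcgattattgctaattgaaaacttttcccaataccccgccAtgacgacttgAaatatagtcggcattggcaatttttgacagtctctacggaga
Gm24265: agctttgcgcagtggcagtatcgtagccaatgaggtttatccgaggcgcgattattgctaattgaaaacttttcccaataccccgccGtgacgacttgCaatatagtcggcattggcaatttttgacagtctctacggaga
Snord17: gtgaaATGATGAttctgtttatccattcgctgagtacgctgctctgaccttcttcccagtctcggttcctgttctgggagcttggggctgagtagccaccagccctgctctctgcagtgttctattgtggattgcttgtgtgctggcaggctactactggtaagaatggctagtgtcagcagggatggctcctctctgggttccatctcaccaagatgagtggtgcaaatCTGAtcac
Rny1 is at chr6:47788069-47788180 on the minus strand, Gm22513 is at chr12:54696782-54696945 on the plus strand, and Snord17 lies at chr2:144265979-144266216 on the minus strand inside an intron of Snx5.

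The third set holds models annotated as microRNAs whose counts were high where those of ribosomal RNA were. Gm23935 (chr16:11144125-11144181, plus strand) and Gm25911 (chr1:167340369-167340424, minus strand) share all but the bases in capitals, and their longest identical run is 23 bases. The mature miR-6236 (chr9:110281353-110281371, plus strand) has its seed, bases 2 to 8, in capitals.
Gm23935: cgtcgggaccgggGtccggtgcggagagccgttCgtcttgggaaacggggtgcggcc
Gm25911: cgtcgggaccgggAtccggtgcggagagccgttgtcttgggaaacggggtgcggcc
miR-6236: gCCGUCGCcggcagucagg

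The left-out libraries were also the shallowest of the 12. Counts on genes were 15800187 in WTSH 4, 23318036 in WTSH 7 and 39585901 in KDSH 6, against 40066727 to 51992394 in the kept libraries. Read pairs that fell on no gene made up 32.2% and 33.0% of counted pairs in WTSH 4 and 7 and 16.4% in KDSH 6, against 9.52% to 15.7% in the kept libraries. Pairs that fell on several overlapping genes made up 16.97%, 17.17% and 9.40%, against 4.14% to 5.597%. Rps6ka5, the MSK1 gene, was between 17.96 and 20.39 counts per 1000000 (CPM, after TMM normalization) in the 3 libraries, lowest in KDSH 6, and between 20.01 and 24.11 in the kept ones, a level that cannot test the genotype label because the knock-in leaves the messenger in place.

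Models of ribosomal RNA are given first, with no test. Rn18s-rs5, which stands for the 18S region of a ribosomal DNA copy, was at 131518 CPM in WTSH 4, 148375 in WTSH 7 and 29677 in KDSH 6, and between 112 and 7574 CPM in the kept libraries, with a median of 536. Gm23935 was at 77696, 66786 and 12772 CPM, against 93.7 to 7864. Gm26917, a noncoding model of 3329 bases on chromosome 17, was at 4373, 4433 and 953 CPM, against 10.9 to 856. Each of these was highest in WTSH 4 or 7, lower in KDSH 6 and lower again in the kept libraries, of which WTSH 2 was always the highest. Lars2, which encodes mitochondrial leucyl-tRNA synthetase, was at 65913, 62047 and 10979 CPM against 113 to 7743, with WTSH 2 the highest of the kept libraries. The 2 ribosomal RNAs of the mitochondrion differed less. mt-Rnr1, the small-subunit RNA, was at 13503, 13818 and 5111 CPM against 1681 to 2684, and mt-Rnr2, the large-subunit RNA, was at 23815, 26300 and 9671 CPM against 3063 to 5147.

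To compare whole classes, the counts of each class were given per 1000000 protein-coding counts of the library (coding-scaled counts). The nuclear-encoded ribosomal models came to 231383 and 235658 coding-scaled counts in WTSH 4 and 7 and 48871 in KDSH 6. They came to 18701 in WTSH 2 and to between 249 and 3917 in the other 8 kept libraries. The stable RNAs without a tail (7SK, RNase P and MRP RNA, Y RNAs, vault RNA and telomerase RNA) came to 1376, 1682 and 459 coding-scaled counts, against 95.8 in WTSH 2 and 0.756 to 16.2 in the other kept libraries. snRNA genes came to 133, 545 and 205, against 18.1 to 37.4. scaRNA genes came to 51.8, 61.9 and 21.5, against 3.25 to 8.58. snoRNA genes came to 89.7, 120 and 60.2, against 39.9 to 53.0. All 3 left-out libraries were above all 9 kept ones in each of these classes, and the ranges did not overlap.

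The exact two-sided permutation test over the 90 ways to choose 2 of 6 WTSH and 1 of 6 KDSH libraries gave p = 0.0111 for each of the stable RNAs, snRNA, scaRNA and snoRNA genes and the replication-dependent histones, which is the smallest value the design allows, with an adjusted p = 0.0292 over the 21 classes tested. On the log2 scale, left-out minus kept with genotype as a block, the stable RNAs differed by 7.13, snRNA genes by 3.32, scaRNA genes by 2.81, snoRNA genes by 0.88 and replication-dependent histones by 0.34. Pairs on no gene differed by 1.90 (p = 0.0111, exact permutation test). The libraries had been chosen on ribosomal RNA reads and on the correlation of gene counts, so none of these p-values is independent evidence that they differ. The stable RNAs were, like the ribosomal models, highest of the kept libraries in WTSH 2, and no conclusion is drawn from their test. Without any 1 of the left-out libraries the classes named in this paragraph kept their direction, but fewer choices of libraries were then possible. The adjusted p (exact permutation test) was 0.0875 for each without WTSH 4 or WTSH 7. Without KDSH 6 it was 0.1, except for replication-dependent histones at 0.175, which were thus not at the smallest value.

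**Figure D1:**
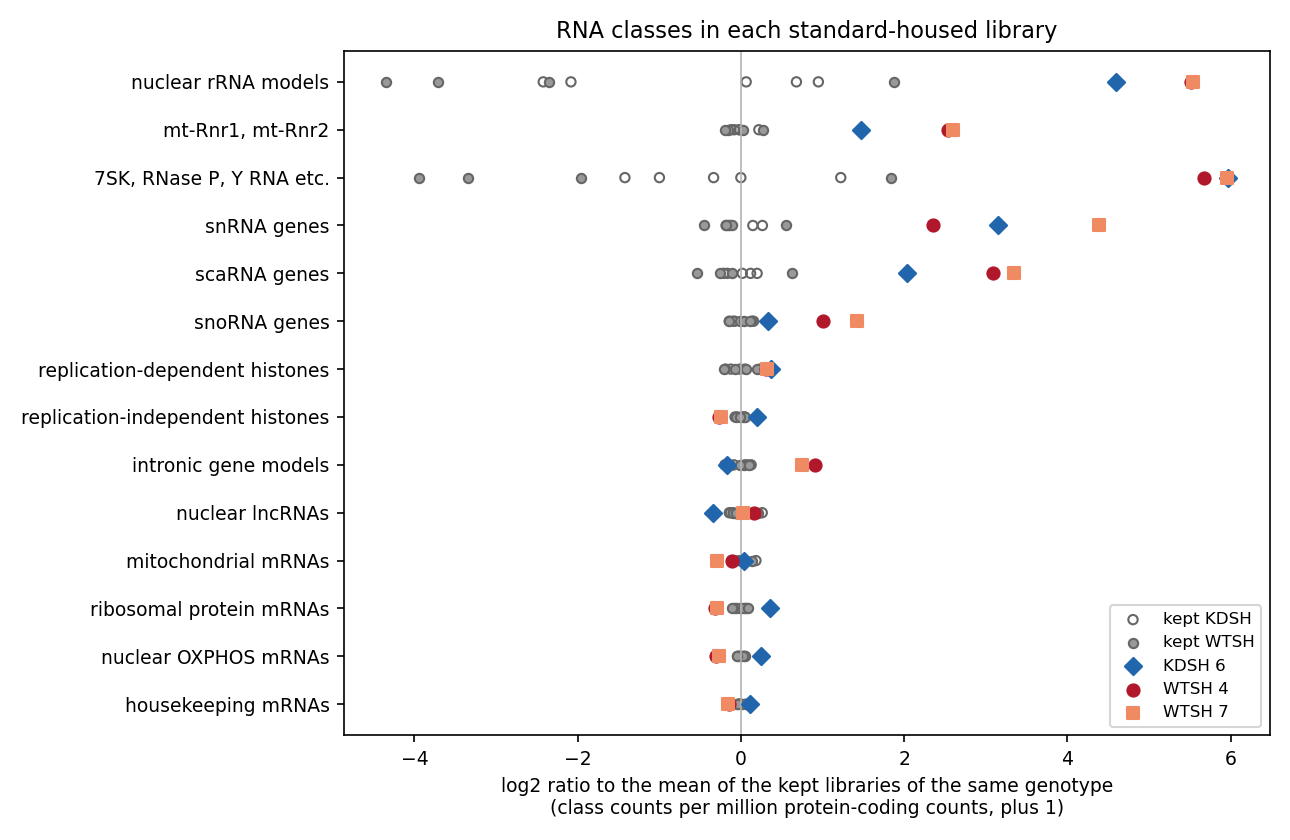
Each row is an RNA class and each point a standard-housed library, with the log2 ratio of its coding-scaled class counts (plus 1) to the mean of the kept libraries of the same genotype on the x axis. Coloured symbols are WTSH 4, WTSH 7 and KDSH 6, filled grey points kept WTSH and open points kept KDSH libraries; the upper 6 classes lie to the right in all 3 left-out libraries, intronic models only in WTSH 4 and 7, and the coding classes at the bottom near 0.

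Single genes were compared in a quasi-likelihood fit of edgeR that held genotype as a block, and a call needed an adjusted p below 0.05 together with a log2 fold change beyond ± 0.38. Of 21869 genes tested, 232 were called higher (1.06%) and 3 lower (0.0137%) in the left-out libraries, which is 1.07% in both directions. By class, 99 of the 232 were TEC models (loci that await experimental evidence), 23 protein-coding genes, 21 antisense RNAs, 19 snoRNAs, 10 snRNAs and 6 scaRNAs. Many of them were close to 0 in kept libraries, 115 having at most 10 counts in each of the 9. In 196 of the 232 the 3 left-out libraries lay above all 9 kept ones, which held for 2.01% of all genes tested. KDSH 6 was the lowest of the 3 in 201. The low-count filter took each combination of genotype and status as a group, the smallest being KDSH 6 alone, so that a gene could enter through a single library, a left-out one included, and a filter on genotype alone tested 18581 genes and gave 39 higher (0.21%) and 0 lower. The count higher fell to 40 without WTSH 7, 63 without WTSH 4, 76 without WTSH 23, 114 without WTSH 5, 116 without WTSH 19, and 150 without KDSH 8 or KDSH 18, and it was 155 without WTSH 2, 463 without KDSH 1 and 969 without KDSH 6.

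Among the stable RNAs without a tail, 6 of 7 tested were called higher against a background of 1.06%. With the filter on genotype alone 2 of the 7 were tested and both were called (background 0.21%), so the other 5 entered the test only under the looser filter. DESeq2 gave an adjusted p for 5 of the 7 and called 2. Rn7sk, the 7SK RNA that holds the elongation factor P-TEFb inactive, was at 1024 CPM in WTSH 4, 1263 in WTSH 7 and 322 in KDSH 6, and between 0.516 and 49.1 in the kept libraries, with a median of 1.99. Its log2 fold change was 6.33 ± 0.86 (SE, edgeR adjusted p = 0.00214). Rpph1, the RNA of RNase P, which trims tRNA precursors, was at 261, 338 and 93.7 CPM against 0.0397 to 38.93, and it overlaps a coding exon, so part of its reads could not be assigned. Rny1 was at 1.63, 8.16 and 3.32 CPM against 0 to 0.334, with a log2 fold change of 5.85 ± 0.61 (edgeR adjusted p = 0.000206). Rny3 was at 0.543, 6.47 and 2.86 CPM against 0 to 0.146. Rmrp, the RNA of RNase MRP, was at 0 counts in all 9 kept libraries and at 0.155, 1.63 and 0.791 CPM in the left-out ones. In the Y RNAs and Rmrp, WTSH 7 was the highest and WTSH 4 the lowest of the 3, whereas 7SK and RNase P RNA were lowest in KDSH 6. Terc, the telomerase RNA, was the member that did not pass (0.310, 0.435 and 0.102 CPM against 0.0208 to 0.162, edgeR adjusted p = 0.294).

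Of 63 snRNA genes tested, 10 were called higher (background 1.06%), and with the filter on genotype alone 4 of 18 (background 0.21%). Gm22513, the U1 model shown above, was at 58.1, 303 and 102 CPM in WTSH 4, WTSH 7 and KDSH 6, against 0.161 to 7.80 in the kept libraries with a median of 0.301 (log2 fold change 6.67 ± 0.70, edgeR adjusted p = 0.00022). The U4 models Gm24407 and Gm24265 were at 13.3, 84.3 and 32.2 CPM and at 11.2, 77.0 and 31.4 CPM, against at most 4.08 and 3.24. Rnu12, the U12 RNA of the minor spliceosome, was at 0.155, 1.96 and 0.638 CPM against 0 to 0.105. In each of these, WTSH 7 was highest and KDSH 6 was above WTSH 4. Of the 17 snRNA genes of at least 120 bases, 8 were called, and of the 46 shorter ones, 2. The snRNA models have many near-identical copies, and since only unique alignments were counted, their levels are lower than those of the RNA families and the split between copies is uncertain.

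snoRNAs guide the modification of ribosomal RNA, and scaRNAs that of snRNAs. Of 110 snoRNA genes tested, 19 were called higher, and of 13 scaRNA genes, 6 (background 1.06%). With the filter on genotype alone the counts were 4 of 43 snoRNA genes and 5 of 8 scaRNA genes (background 0.21%). Snord17 was at 12.1, 20.6 and 5.18 CPM against 0.0226 to 0.606 (log2 fold change 6.26 ± 0.44, edgeR adjusted p = 5.53e-06), and it remained called in every alternative that tested it. Gm25395, a scaRNA model in an intron of Atg16l1, was at 11.2, 14.1 and 4.82 CPM against 0.119 to 0.627 (log2 fold change 5.06 ± 0.32, edgeR adjusted p = 2.19e-06). Scarna2, which is longer than most at 414 bases, was at 13.02, 14.46 and 3.90 CPM against 0 to 1.88. Gm22442, in an intron of Chd3, was at 7.52, 7.94 and 2.25 CPM against 0.311 to 0.719. In these 4 genes KDSH 6 was the lowest left-out library and still above every kept one. Of the 25 called snoRNAs and scaRNAs, 23 were among the 77 tested that were at least 120 bases long, and 2 among the 46 shorter ones. Length was looked at after the calls were seen, and it was not tested.

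The genes that host these small RNAs were not called with them. Of the 25 called snoRNAs and scaRNAs, 21 lay inside an intron of a coding gene, and the 19 host genes had log2 fold changes between -0.18 and 0.12, with 0 called by edgeR, 0 by DESeq2 and 0 at an unadjusted p under 0.05. Snx5, the host of Snord17 and a sorting nexin of endosomes, was at 71.0, 67.6 and 78.6 CPM in WTSH 4, WTSH 7 and KDSH 6 and between 68.2 and 84.7 in the kept libraries (log2 fold change -0.02, 95% interval -0.17 to 0.14). Atg16l1, an autophagy gene that hosts 2 of the called scaRNAs, was at 64.6, 66.7 and 68.0 CPM against 61.8 to 71.9 (95% interval -0.12 to 0.11). In both hosts the left-out libraries lay within or next to the range of the kept ones while the RNA of the intron rose. In 18 of the 19 hosts the 95% interval of the log2 fold change lay within ± 0.38.

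Of 135 models annotated as microRNAs, 5 were called higher (3.70%, background 1.06%), and with the filter on genotype alone 0 of 55 (background 0.21%). As a class, without Gm23935 and Mir6236, which were counted among the ribosomal models, they came to 3962, 4319 and 1023 coding-scaled counts in WTSH 4, WTSH 7 and KDSH 6. The kept libraries were at 70.03 to 705, with WTSH 2 the highest, as it was for the ribosomal models (log2 difference 4.18). Most of the class counts fell on 1 model, Gm24270, named after its values were seen, at 2843, 3058 and 640.2 coding-scaled counts against 4.22 to 429. Like Rn18s-rs5, Gm24270 was highest in WTSH 7 and lowest of the 3 in KDSH 6. The class thus went along with the RNAs that the libraries had been set apart for. No conclusion is drawn from its exact permutation test (p = 0.0111, adjusted p = 0.0292), since the choice of libraries largely fixed the outcome. Gm25911 was at 4.96, 4.19 and 1.12 CPM against 0 to 0.397, and it has nearly the sequence of Gm23935 shown above. Mir6236 was at 3007, 7645 and 1700 CPM against 9.56 to 1011. Mature microRNAs are shorter than the fragments such libraries are made from.

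Histone genes divided by type. Of the 70 replication-dependent histone genes in the files, 33 were tested and 10 were called higher (background 1.06%), and 18 had all left-out libraries above all kept ones (2.01% of all genes tested). With the filter on genotype alone 16 were tested and 2 were called (background 0.21%), so the other 17 entered the test only under the looser filter. None of the 11 replication-independent histone genes was called by edgeR or DESeq2, and 0 had an unadjusted p under 0.05. Their median log2 fold change was -0.19 in WTSH 4 and 7 and 0.26 in KDSH 6, and 3 of the 11 were called higher in KDSH by the difference between the effects (background 3.91%). As a class they came to 499.6, 507.6 and 679 coding-scaled counts against 564 to 625, so that the WTSH pair lay below the kept range and KDSH 6 above it. Hist1h4d, an H4 gene, was at 5.12, 7.07 and 1.58 CPM in WTSH 4, WTSH 7 and KDSH 6, and between 0.0232 and 0.179 in the kept libraries with a median of 0.0918 (log2 fold change 5.12 ± 0.27, edgeR adjusted p = 3.51e-07). Hist1h4f was at 1.01, 1.79 and 0.536 CPM against 0 to 0.0452, at most 2 counts in any kept library. Hist1h4h was at 3.64, 4.35 and 2.68 CPM against 0.626 to 1.16 (log2 fold change 1.88 ± 0.18, edgeR adjusted p = 8.35e-05). Hist1h1e, a linker histone gene, was at 5.12, 3.26 and 1.43 CPM against at most 1.01. The more abundant members of the family stayed within the range of the kept libraries or next to it. Hist1h2bc was at 25.7, 23.4 and 32.0 CPM against 21.5 to 32.2, Hist1h1c was at 13.6, 12.9 and 18.2 against 11.1 to 22.7, and Hist3h2ba was at 9.46, 12.3 and 14.6 against 9.92 to 13.5.

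The class as a whole rose by less, to 120, 120 and 123 coding-scaled counts against 83.3 to 112 in the kept libraries. Higher levels were measured in 2 enriched libraries, KDEE 12 at 131 and WTEE 10 at 188. Against all counts on genes in place of coding counts, the class differed by 0.11 on the log2 scale and did not pass (adjusted p = 0.385, exact permutation test), and without WTSH 5, KDSH 1, KDSH 8 or KDSH 24 its adjusted p was between 0.0622 and 0.0875. Histone genes of one type are near copies of each other, and pairs that fit several of them were not counted.

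The histone genes were also divided by their annotated ends, a division made after the values were seen and not tested. The stem-loop motif was present, on the sense strand, in 23 of the 33 tested genes and in 9 of the 10 that were called, and in 47 (0.0849%) of 55341 gene names with a transcript, 42 of them replication-dependent histones. A poly(A) signal (AATAAA or ATTAAA) lay in the last 40 bases of an annotated transcript in 11 of the 33, and in 86.9% of the coding genes tested. Of these 11 genes 1 was called higher, Hist1h4h, and of the 22 without such a signal 9 were called. The 2 groups overlapped, since Hist1h4a with a signal had a log2 fold change of 3.62 without passing the test and Hist1h2bc without one was at 0.06. Level went along with the split, as the plot of histone genes by level shows, and its part in the result was not tested.

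**Figure D2:**
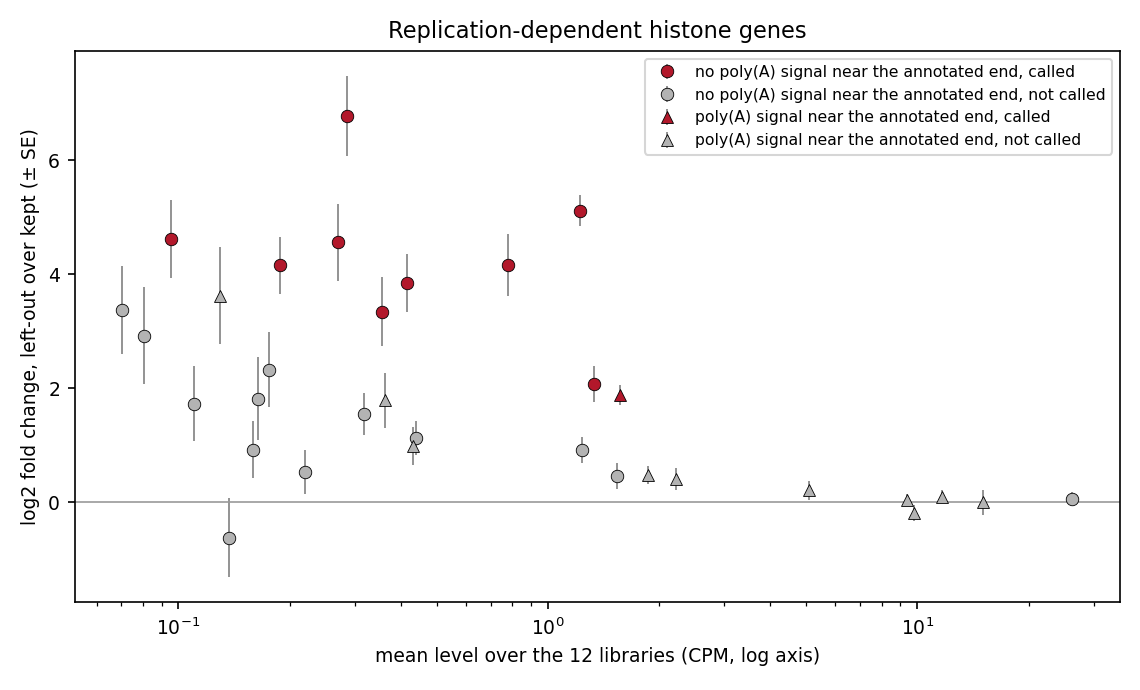
Each point is 1 of 33 replication-dependent histone genes, with its mean level over the 12 libraries on the x axis (CPM, log scale) and its log2 fold change, left-out over kept, with its SE on the y axis. Circles have no poly(A) signal near the annotated end and triangles have one, red points were called, and the genes above 5 CPM lie close to 0.

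Gene models that lie wholly inside an intron of a coding gene, other than small RNA genes, were high in WTSH 4 and 7. Over all 12 libraries 123 of 1851 were called higher, 6.65% against a background of 1.06%. With the filter on genotype alone 9 of 716 were called (1.26%, background 0.21%). The median log2 fold change of these 716 was 0.16, against 1.28 for the 1851. WTSH 4 and 7 against the kept WTSH libraries gave 492 of 1405 (35.0%, background 3.78%), in a fit that called 760 of 20103 genes higher and 3.92% in either direction. The low-count filter of that fit took status as the group. A model near 0 in the kept libraries could thus enter it through WTSH 4 and 7 alone, and no stricter filter was run there. KDSH 6 against the kept KDSH libraries gave 0 higher and 1 lower of 1106 (background 0.134% higher, 0.0297% lower and 0.163% in all), in a fit with 1 left-out library that called 27 of 20221 genes higher, so that this 0 does not show a difference from the WTSH pair. The difference between the effects in KDSH and WTSH was called lower in KDSH in 107 of the 1851 (5.78%, background 3.36%) and higher in 2. As a class, the models came to 2434 and 2186 coding-scaled counts in WTSH 4 and 7, above the 1179 to 1505 of the kept libraries, whereas KDSH 6 lay within that range at 1220. The class did not pass over the 12 libraries (log2 difference 0.45, p = 0.0556, adjusted p = 0.117, exact permutation test). The count of 123 was 2 without WTSH 7, 6 without WTSH 4, 18 without WTSH 23, 40 without WTSH 5, 45 without WTSH 19, 66 without KDSH 8 or KDSH 18, 67 without WTSH 2, 313 without KDSH 1 and 596 without KDSH 6.

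Gm10855, a model in an intron of Celf2, was at 4.50, 2.94 and 0.842 CPM in WTSH 4, WTSH 7 and KDSH 6 against 0 to 0.429 (log2 fold change 3.70 ± 0.71, edgeR adjusted p = 0.0233). Celf2, an RNA-binding protein gene, was itself at 479, 487 and 346 CPM against 366 to 443, a little above the kept range in the WTSH pair and a little below it in KDSH 6. Gm37964, in an intron of B3galt1, was at 1.32, 1.85 and 0.383 CPM against 0 to 0.181 (edgeR adjusted p = 0.0166). B3galt1, a galactosyltransferase gene, was at 39.9, 40.7 and 31.6 CPM against 34.6 to 41.0. Gm42995, in an intron of Auts2, was at 0.465, 0.761 and 0.153 CPM against 0 to 0.0459, and Auts2 was at 129, 129 and 97.3 CPM against 78.0 to 117. In each pair the intronic model, named for its large called change, changed by far more than the exons of its host.

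The 123 called models lay in 78 host genes, of which 0 were called by edgeR or DESeq2, 4 had an unadjusted p under 0.05 and 65 had an interval within ± 0.38, and the median log2 fold change was 3.496 for the models and 0.01 for the hosts. These hosts held a median of 359148 bases of intron, against 82893 in the 1069 hosts of tested models of which none was called and 19341 in the coding genes tested, and the difference was not tested. In the fit of WTSH libraries alone, the 492 called models lay in 264 host genes, of which 259 were tested. Of these hosts 12 were called higher and 0 lower, against 0.698% of coding genes called higher in that fit, and 139 had an interval within ± 0.38. The median log2 fold change there was 4.03 for the models, picked in the same way, and 0.15 for the hosts. Of the 123 models 96 were on the strand of their host, as were 1152 of the 1851 tested. Strand was not recorded in the counts, so a read of an unspliced host and a read of the model cannot be told apart.

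**Figure D3:**
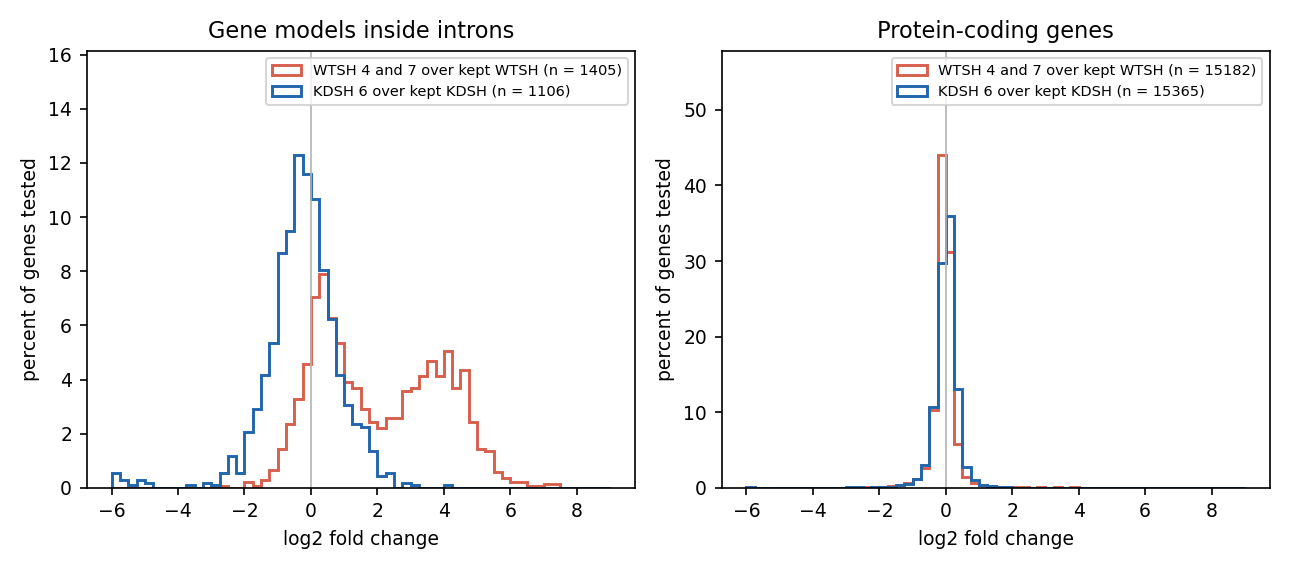
The x axis is the log2 fold change and the y axis the percent of genes tested, for gene models inside introns (left) and protein-coding genes (right), with WTSH 4 and 7 against the kept WTSH libraries in red and KDSH 6 against the kept KDSH libraries in blue. Intronic models form a second peak near 4 in WTSH 4 and 7, with no such peak in KDSH 6, while coding genes are centred near 0 in both. Models near 0 in the kept libraries could enter each fit through its left-out libraries alone.

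Of the 15 nuclear long noncoding RNAs examined, 1 was called higher (background 1.06%), and its call was lost with the filter on genotype alone and with at least 10 counts in every library. Kcnq1ot1, the imprinted antisense RNA of the Kcnq1 locus, was at 82.5, 82.3 and 19.9 CPM in WTSH 4, WTSH 7 and KDSH 6, and between 17.3 and 22.7 in the kept libraries (log2 fold change 1.45 ± 0.28, edgeR adjusted p = 0.0248). The WTSH pair was far above the kept range and KDSH 6 was inside it, and the difference between the effects passed the test (edgeR adjusted p = 0.000214). Malat1, a nuclear speckle RNA, was at 2360, 2143 and 761 CPM against 519 to 1051, with the same division between libraries (edgeR adjusted p = 0.0188 for the difference), and it did not pass over all 12 (edgeR adjusted p = 0.134). Neat1, the scaffold of paraspeckles, was at 140, 120 and 168 CPM against 123 to 173. Meg3, an imprinted RNA, was at 3248, 3224 and 2894 CPM against 3302 to 4950, below every kept library, and did not pass (log2 fold change -0.29, edgeR adjusted p = 0.377).

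Coding genes mostly held. Of 15685 tested, 9879 (63.0%) had a 95% interval of the log2 fold change within ± 0.38, which was so for 47.2% of all genes tested, 25 were called and 5781 were neither. Of the 11225 coding genes with a mean of at least 5 CPM, 9586 (85.4%) held. The 5 whose interval stayed closest to 0 were Ppp1r21, Ppp1r2, Kif1bp, Dnajc7 and Nfyb. Ppp1r21, an endosomal protein gene, was at 74.3, 73.3 and 73.9 CPM against 71.7 to 75.1 (95% interval -0.09 to 0.10), so that its left-out values lay inside the kept range. Nfyb, a subunit of the transcription factor NF-Y, was at 40.9, 40.2 and 42.4 CPM against 38.8 to 43.3.

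In the groups of coding genes examined no gene was called, and the share that held differed. Of the 14 housekeeping genes 0 were called and 12 held, of the 83 cytoplasmic ribosomal protein genes 0 were called and 74 held, of the 81 nuclear genes of oxidative phosphorylation 0 were called and 72 held, and of the 12 mitochondrial messengers 0 were called and 7 held. DESeq2 called 0 in each of these groups as well, and an unadjusted p under 0.05 was found for 1 housekeeping and 1 oxidative phosphorylation gene. Of 15 immediate early genes and 14 host genes of small nucleolar RNAs, 0 were called by either tool and 0 had an unadjusted p under 0.05, with 4 (26.7%) and 8 held, so that most immediate early genes were neither called nor held. The 14 host genes had a median log2 fold change of -0.19 in WTSH 4 and 7 and of 0.27 in KDSH 6. Snhg14 went the other way, at 0.63 and -0.74. Medians in WTSH 4 and 7 and in KDSH 6 were -0.23 and 0.40 for ribosomal protein genes and -0.22 and 0.36 for oxidative phosphorylation genes. The fit of WTSH libraries alone called 2 of the 83 ribosomal protein genes lower (background 0.139%). Opposite effects thus entered the fit over all 3 libraries, and a gene that held there was not shown to be unchanged in each library. mt-Co1, a subunit of cytochrome c oxidase, was at 11999, 10784 and 12260.4 CPM against 11388 to 14722, and mt-Cytb was at 5691, 5241 and 6124 against 4903 to 6870. The messengers of the mitochondrion thus stayed within or near the kept range in the libraries in which its 2 ribosomal RNAs were above it.

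Markers of the cell types of the hippocampus were found in all 12 libraries. Excitatory neuron markers summed to 6930, 7565 and 7415 CPM in WTSH 4, WTSH 7 and KDSH 6 and to between 6708 and 8260 in the kept libraries. Astrocyte markers summed to 4991, 5489 and 5191 against 4649 to 6053, and microglia markers to 383, 463 and 598 against 412 to 568, so that WTSH 4 lay below and KDSH 6 above the kept range for microglia. WTSH 4 was also below it for interneuron and oligodendrocyte precursor markers and WTSH 7 for oligodendrocyte markers, and KDSH 6 was above it for endothelial and red blood cell markers. Over the 12 libraries, 0 of the markers of neurons, glia, endothelium, choroid plexus, pituitary or blood were called by edgeR or DESeq2, and an unadjusted p under 0.05 was found for 4 of 7 pituitary and 1 of 5 red blood cell markers. In bulk tissue, fewer cells of a type and less RNA per cell cannot be told apart. Choroid plexus markers summed to 83.1, 34.4 and 55.7 CPM and varied from 30.8 to 4318 among the kept libraries, and pituitary markers summed to 2.09, 3.97 and 413 CPM against 1.84 to 237, with KDSH 6 the highest. Across these lists 0 members were at 0 in every library, and their part in the results was not tested.

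A few coding genes did move. Rgs9, a regulator of G protein signalling, was at 87.1, 74.0 and 32.0 CPM in WTSH 4, WTSH 7 and KDSH 6, and between 13.4 and 24.4 in the kept libraries with a median of 14.7 (log2 fold change 1.87 ± 0.21, edgeR adjusted p = 0.000451). WTSH 2 was the highest of the kept libraries, and Rgs9 was called in all 24 alternatives. Dpysl2, which encodes the microtubule-binding protein CRMP2, was at 209, 233 and 144 CPM against 95.5 to 121 (log2 fold change 0.79 ± 0.11, edgeR adjusted p = 0.00216). Rorb, a nuclear receptor, was at 18.6, 19.6 and 14.7 CPM against 11.2 to 13.9, with a call that was lost in 10 of 24 alternatives, and Rtl1, an imprinted gene derived from a retrotransposon, was at 14.5, 11.8 and 9.54 against 6.75 to 8.80. In all 4 genes KDSH 6 was the lowest of the left-out libraries and above every kept one. Cdr1, named after its values were seen, was at 147, 151 and 36.6 CPM against 25.8 to 39.5 (log2 fold change 1.70 ± 0.28, edgeR adjusted p = 0.0113), so KDSH 6 lay inside the kept range. Its locus gives rise to the circular RNA Cdr1as on the other strand, from which its reads could not be told apart without strand. The call of Cdr1 was lost without WTSH 4 (edgeR adjusted p = 0.0754) or WTSH 7 (edgeR adjusted p = 0.114).

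Rfx5 and Gkn3 were the 2 coding genes called lower, against a background of 0.0137% over all genes. Rfx5, a factor of MHC class II promoters, was at 10.6, 11.4 and 9.67 CPM against 12.6 to 15.9 (log2 fold change -0.43 ± 0.09, edgeR adjusted p = 0.0395), below every kept library, and 18 of the 24 alternatives lost its call. Gkn3 was at 0.775, 0.707 and 0.816 CPM against 0.996 to 2.29.

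Although most coding genes held over the 3 libraries together, the WTSH pair and KDSH 6 moved apart from the kept libraries in different directions. The difference between the effects in KDSH and WTSH was called for 1591 genes (7.28% of 21869), among them 1082 of the 9879 coding genes that held. It was called higher in KDSH for 69 of the 83 ribosomal protein genes and 53 of the 81 oxidative phosphorylation genes (background 3.91%), and lower for 0 of either. Ribosomal protein genes had a median log2 fold change of -0.23 in WTSH 4 and 7 and of 0.40 in KDSH 6, and oxidative phosphorylation genes of -0.22 and 0.36. In coding-scaled counts, ribosomal protein messengers came to 10905 and 11118 in WTSH 4 and 7, below the 12281 to 14461 of the kept libraries, and to 16602 in KDSH 6, above it. Rplp1, a protein of the ribosomal stalk, was at 378, 414 and 578 CPM against 400 to 489.

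Coding genes differed by length in the same way. The 11225 coding genes with a mean of at least 5 CPM were divided into 5 bins of like size by annotated exon length, and each library was set against the mean of the other kept libraries of its genotype on the log2(CPM + 0.5) scale. The shortest bin (243 to 2848 bases) lay at a median of -0.19 in WTSH 4 and -0.16 in WTSH 7, and at 0.21 in KDSH 6. The longest bin (8263 to 123179 bases) lay at 0.03, 0.08 and -0.19. The shortest minus the longest bin was -0.22 in WTSH 4, -0.23 in WTSH 7 and 0.40 in KDSH 6, and between -0.12 and 0.14 in the kept libraries. All 3 left-out libraries were thus outside the kept range, KDSH 6 on the opposite side from the WTSH pair. Across the 11225 genes the effects in the WTSH pair and in KDSH 6, which share no library, had a Pearson correlation of -0.38, given as a description since genes are not independent replicates and length goes along with both. The share of these genes within ± 0.38 of the other kept libraries was 92.7% in WTSH 4, 94.9% in WTSH 7 and 91.3% in KDSH 6, and between 94.9% and 99.0% in the kept libraries. WTSH and KDSH differ here by genotype and by library at once, which cannot be told apart with 1 left-out KDSH library.

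**Figure D4:**
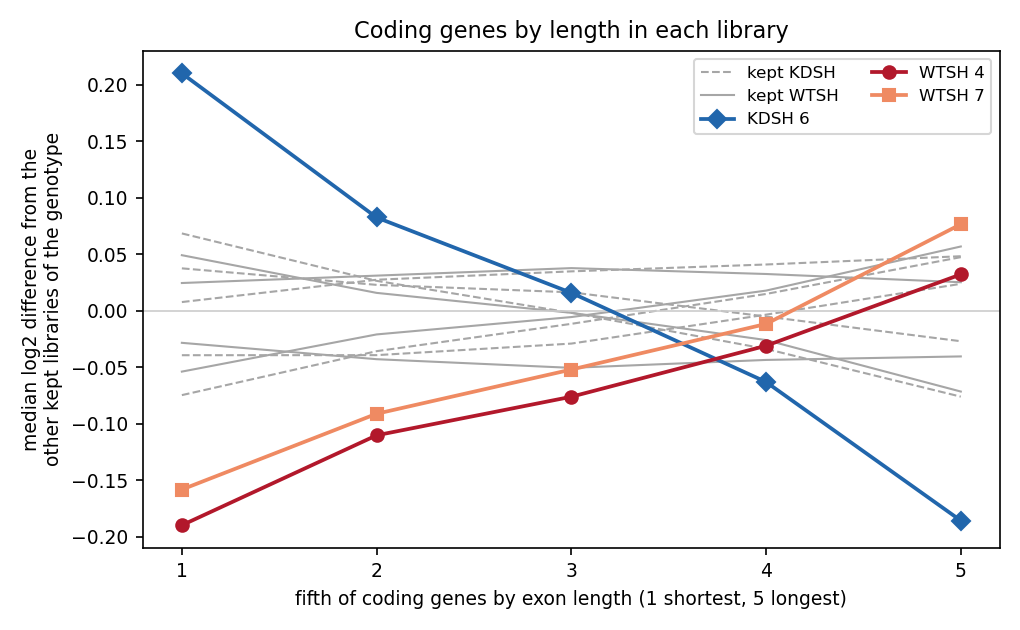
The x axis divides 11225 coding genes into 5 bins by exon length, and the y axis is the median log2 difference of a library from the other kept libraries of its genotype. WTSH 4 and WTSH 7 climb from -0.19 and -0.16 to 0.03 and 0.08, KDSH 6 falls from 0.21 to -0.19, and at the shortest and longest bins the kept libraries in grey (solid WTSH, dashed KDSH) lie nearer to 0 than KDSH 6.

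Among kept libraries, the question was whether replication-dependent histones, snoRNA genes, intronic models and nuclear long noncoding RNAs followed the ribosomal RNA models at lower levels. Nuclear long noncoding RNAs were not high as a class in the left-out libraries (log2 difference -0.07). The stable RNAs without a tail and the snRNA and scaRNA genes, which differed most, were not among these relations. Whether they followed the ribosomal RNA models among kept libraries was not tested. Over the 21 kept libraries of the series, 4 relations were computed between the log2 ratio of ribosomal RNA models to coding counts and that of another class, each with 100000 permutations. The ribosomal RNA models here include the 2 mitochondrial rRNA genes. In every kept library but WTSH 2 these held more counts than the nuclear-encoded models, as in WTSH 5 with 8288 of 8537 coding-scaled counts. Replication-dependent histones gave Pearson's r = 0.50 (permutation p = 0.0264, adjusted p = 0.106) and Spearman's rho = 0.41 (permutation p = 0.069, adjusted p = 0.138). snoRNA genes gave r = -0.24 (permutation p = 0.302, adjusted p = 0.403) and rho = -0.26 (permutation p = 0.261, adjusted p = 0.348). Intronic models gave r = -0.05 (permutation p = 0.836, adjusted p = 0.836) and rho = 0.00 (permutation p = 0.989, adjusted p = 0.989), and nuclear long noncoding RNAs gave r = -0.36 (permutation p = 0.106, adjusted p = 0.212) and rho = -0.43 (permutation p = 0.0575, adjusted p = 0.138). None of the 4 passed after adjustment. Without WTSH 2 and WTEE 10, the libraries farthest from the median, r was 0.42, -0.24, -0.07 and -0.46. Centred on the means of the 4 groups, r was 0.45, -0.26, -0.18 and -0.41. Without the mitochondrial rRNA genes, r was 0.40, -0.07, 0.15 and -0.29, and the lowest adjusted p was 0.273 (Pearson, permutation test).

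WTSH 2, the kept library with the most ribosomal RNA reads, was high in some of these classes and not in others. Against the mean of the other 3 kept WTSH libraries it held 34.3-fold more of the nuclear-encoded ribosomal models and 34.3-fold more of the stable RNAs without a tail, 2.11-fold more of the scaRNA genes and 1.77-fold more of the snRNA genes. Its snoRNA genes were at 0.99-fold, its replication-dependent histones at 0.94-fold and its intronic models at 1.04-fold. WTSH 2 was the highest of the 9 kept libraries in 70 of the 232 genes called higher (30.2%), against 9.78% of all genes tested.

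**Figure D5:**
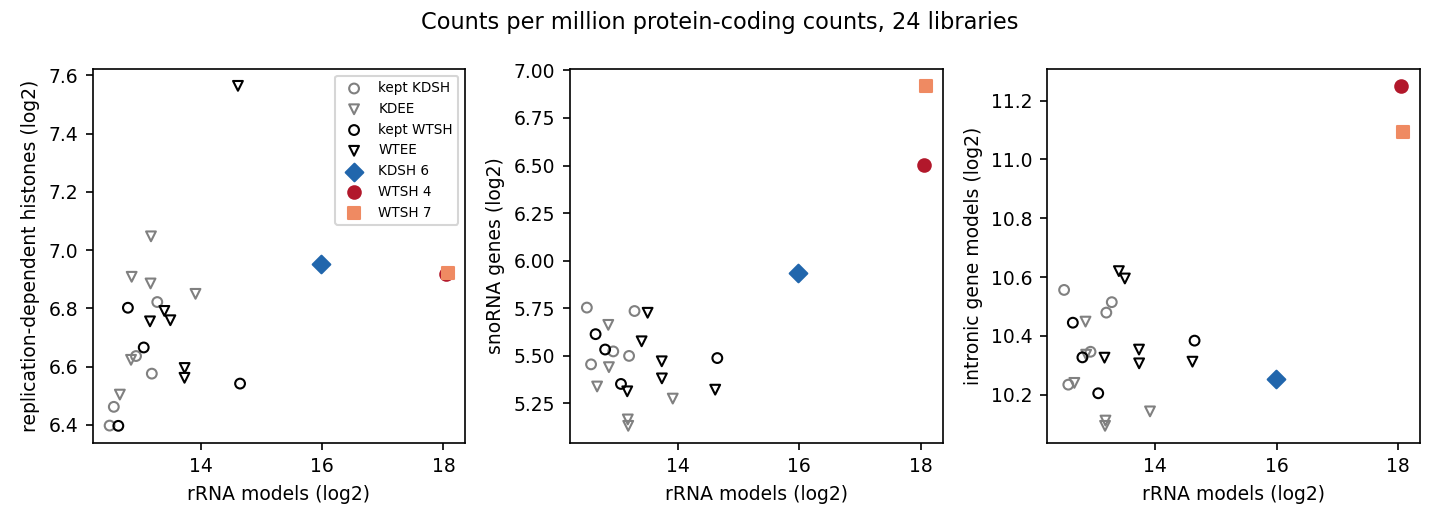
Each point is 1 of 24 libraries, with the log2 ratio of ribosomal RNA models to protein-coding counts (coding-scaled counts plus 1) on the x axis and that of replication-dependent histones, snoRNA genes or intronic models on the y axis. Circles are kept SH and triangles EE libraries, black WT and grey KD. The coloured left-out libraries lie to the right of all kept ones. Among the kept libraries none of the relations shown passed the permutation test after adjustment. The ribosomal RNA models include the mitochondrial rRNA genes.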

How the data were processed

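Per the labels and the study's methods, the authors trimmed reads with Skewer, checked them with FastQC (0.11.3), aligned them to GRCm38 (annotation 87) with STAR (2.5) and counted uniquely aligned pairs per gene with HTSeq (0.6.1p1), ignoring strand; these raw counts per gene were deposited, 1 column for each of 24 libraries. The lines HTSeq gives for pairs on no gene or on several genes (13.1% or more of pairs) were left out of library sizes and tests. Counts of 49568 gene symbols were fitted with edgeR 4.0.16 (TMM, quasi-likelihood, genotype as a block, Benjamini-Hochberg adjustment) in R 4.3.3; DESeq2 1.42.0, other filters, scalings and libraries were alternatives. A gene held where the 95% interval of its log2 fold change lay within ± 0.38. Class ratios were tested by exact permutation within genotype in Python 3.11.15 with numpy 2.4.6. Symbols were matched to GENCODE M21 (95.2% to 1 gene). The p-values measure the spread between libraries, each from 1 mouse, so mouse and library preparation cannot be told apart. Counting error includes PCR copies since reads carry no molecular identifiers. The edgeR step was tested on simulated counts in which only well-counted genes were changed and all libraries were alike in composition. That test does not cover calls of genes near 0.

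The members, lists and classes were chosen with earlier results of these data known. Genes were named by rule: Rps6ka5, up to 3 most abundant and 3 most changed called members of each list or class, the 6 largest called coding changes in each direction without overlap, and the 5 coding genes that held closest to 0. Lars2, Cdr1, Gkn3, Terc, Rmrp, Meg3, Mir6236, Hist1h4a, Hist1h4h, Hist1h1e, the host genes and other genes outside these ranks were named after their values were seen.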

Additional observations from a re-analysis of the deposited data

Results flagged for a closer look

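Among the kept libraries, 50 groups of values were searched for a library far from the others of its group, and 10 were found. The groups overlapped, since Rn7sk is also part of the stable RNAs without a tail. The 10 are therefore not independent, and their number is not set against a rate by chance. In WTSH 2, nuclear-encoded ribosomal RNA models were at 18701 coding-scaled counts (per 1000000 protein-coding counts), against 249 to 999 in the other kept WTSH libraries, and stable RNAs without a tail were at 95.8, against 0.756 to 5.96. The same library stood apart for Rn7sk (49.1 CPM against 0.516 to 4.16), Gm22513 (7.80 CPM against 0.179 to 0.947), Snord17 (0.606 CPM against 0.0397 to 0.107) and Rgs9 (24.4 CPM against 13.4 to 14.5). WTSH 23 was high for nuclear long noncoding RNAs, at 9972 coding-scaled counts against 8012 to 8247.

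KDSH 18 stood apart from the other kept KDSH libraries for mitochondrial rRNA genes, at 6717 coding-scaled counts against 5302 to 5696, for Rn7sk, at 12.2 CPM against 1.18 to 3.84, and for Gm22513, at 2.24 CPM against 0.161 to 0.311.

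The effects in the 2 genotypes differed, by an interaction term in edgeR, for 69 of the 83 ribosomal protein genes and 53 of the 81 oxidative phosphorylation genes, all higher in KDSH, and for 107 intronic models that were lower in KDSH. The only left-out KDSH library is KDSH 6, so genotype and library cannot be told apart in these values.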

How the results depend on the processing

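No paired analysis was possible because the mouse numbers 1 to 24 are each used once and no number is shared between groups. With DESeq2, 635 genes were called higher and 7 lower, with 16 replication-dependent histone genes and 433 intronic models higher. Without a filter on low counts the numbers were 581 higher, 9 lower and 381 intronic models, and over all 24 libraries 525, 9 and 345. With at least 10 counts in every library, 12 genes were higher and 0 lower, with 2 histone genes, 3 small RNA genes (snoRNA, scaRNA and snRNA) and 0 intronic models. With the filter on genotype alone, added after seeing the data, they were 39, 0, 2, 13 and 9. Without the genotype term 22 small RNA genes were higher. WTSH libraries alone gave 760 higher, 28 lower and 492 intronic models, and KDSH libraries alone 27, 6 and 0, with 2 histone genes, 12 small RNA genes and 4610 coding genes that held. The cause of these shifts was not tested beyond the number of genes or libraries each setting leaves. Leaving out 1 library at a time gave 40 (without WTSH 7) to 969 (without KDSH 6) genes higher, 0 to 87 lower, 17 to 39 small RNA genes and 2 to 596 intronic models. In the same runs the log2 class differences were 6.68 to 7.82 for stable RNAs, 0.30 to 0.38 for replication-dependent histones, 0.67 to 1.21 for snoRNA, 2.59 to 3.29 for scaRNA and 2.80 to 3.79 for snRNA genes, 1.66 to 2.60 for pairs on no gene, -0.16 to 0.10 for nuclear long noncoding RNAs (above 0 without KDSH 6) and -0.30 to 0.042 for ribosomal protein genes (0.042 without WTSH 4 and 0.03 without WTSH 7). With all counts on genes as denominator, replication-dependent histones differed by 0.11 (adjusted p = 0.385) and nuclear long noncoding RNAs by -0.30 (adjusted p = 0.0467, exact permutation test); without Lars2 in the denominator, ribosomal protein genes differed by 0.018. Over all 24 libraries r was 0.79 for snoRNA genes, 0.70 for intronic models and 0.018 for nuclear long noncoding RNAs, values that rest on the left-out libraries. Over the 21 kept libraries, r for intronic models was 0.15 without the mitochondrial rRNA genes. The depth of WTSH 4 limits what can be called among genes near 0.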
